A study of Mus musculus with 6 samples.

Results

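Zrsr2 and 5 genes tied to it by protein family, pathway or paralog location were followed at every one of their listed introns in wild type and ZRSR2 knockout mouse embryonic stem (ES) cells. The genes were Zrsr2 itself, U2af1, U2af2, U2af1l4, Sf1 and Commd1, the last because one of its introns holds the intronless Zrsr2 paralog Zrsr1. Members were the introns that lie inside the RefSeq span of these genes on the gene's strand (assembly GRCm38.p6, the mm10 build of the deposited coordinates). The rule took 55 of 219945 introns and 6 of the 25120 genes that hold listed introns. Zrsr2 had 9 introns, U2af1 9, U2af2 13, U2af1l4 10, Sf1 12 and Commd1 2, numbered here in the order of transcription.

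All 6 libraries came from the cell line VGB6, with 3 labelled wild type (WT) and 3 labelled ZRSR2 knockout (KO), each group with replicates numbered 2, 3 and 5. Sample titles put a P before each number, and the labels do not explain it. The labels name no further allele, agent or treatment, do not say how the knockout was made, and do not say whether a group is 1 clone or several cultures, which leaves p-values to describe the scatter of these libraries alone, perhaps technical in origin. PolyA-selected RNA was sequenced. Spliced reads over all introns numbered 19801687, 56340422 and 63623214 in WT replicates 2, 3 and 5 and 61904886, 31391313 and 37130068 in KO replicates 2, 3 and 5, and the share of unspliced reads over all introns was 1.66% to 1.75% in WT and 1.56% to 1.89% in KO. Of 8 ES cell markers 7 were measured, with a summed level of 1426 to 1694 CPM (spliced reads per library total, rescaled with edgeR's TMM factors) in WT and 1584 to 1881 CPM in KO. By mean, Dppa5a (659 CPM in WT and 671 in KO) and Pou5f1 (471 and 650) were the largest of these. Of the 7, 3 had a log2 difference (KO minus WT) above 0 and 4 below, with a median of -0.20. Of 8 fibroblast markers 7 were measured, and their summed level varied within both groups, at 80.2 to 324.7 CPM in WT and 48.6 to 360.6 CPM in KO. Col1a1, Col1a2, Col3a1 and Postn fell from replicate 2 to 3 to 5 in both groups, while Thy1, Dcn and Fbn1 did not. Col1a1 was at 115.8, 67.8 and 34.2 CPM in WT and 132.2, 86.0 and 17.7 in KO. Endoderm markers (2 of 5 measured) summed to 2.04 to 3.61 CPM in WT and 1.02 to 1.65 in KO, and trophoblast markers (3 of 4) to 77.6 to 145.6 and 70.2 to 76.2. Both sums were lower in every knockout library, and their part in the results was not tested. Most of the trophoblast sum was Tfap2c, at a mean of 98.5 CPM in WT and 70.6 in KO. Eomes was at 3.13 and 1.55 and Cdx2 at 0.396 and 0.38.

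U2AF is a heterodimer that marks the end of an intron for the spliceosome. Its large subunit U2AF65, made from U2af2, binds the polypyrimidine tract, and its small subunit U2AF35, made from U2af1, contacts the AG at the 3′ splice site, while Sf1 encodes the protein that first binds the branch point next to them. U2af1l4 encodes U2AF26, a paralog that can take the place of the small subunit. Zrsr2 encodes a further U2AF35-related protein that acts at the 3′ splice site of the rare U12-type introns, which the minor spliceosome removes, and mouse Zrsr1 is an imprinted, intronless copy of that family within Commd1, itself the gene of a protein in endosomal copper and cargo transport.

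Because Zrsr1 has no intron, none of its reads could enter the spliced counts, and what the files hold about it is the coverage of the Commd1 intron around it. The 250 bases before the RefSeq start of both paralogs are shown because they are the sequence at which these 2 transcripts begin, one of them inside another gene. The Zrsr2 window lies at chrX:163958667-163958916 on the minus strand and the Zrsr1 window at chr11:22971755-22972004 on the plus strand, opposite to Commd1. Both come from RefSeq (GRCm38.p6), 5′ to 3′, with each CG dinucleotide in capitals.
Zrsr2: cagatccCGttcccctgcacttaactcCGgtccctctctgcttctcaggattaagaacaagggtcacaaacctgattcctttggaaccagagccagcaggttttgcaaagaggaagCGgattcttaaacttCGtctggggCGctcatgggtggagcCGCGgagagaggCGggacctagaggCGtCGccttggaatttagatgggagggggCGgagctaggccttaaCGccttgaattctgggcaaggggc
Zrsr1: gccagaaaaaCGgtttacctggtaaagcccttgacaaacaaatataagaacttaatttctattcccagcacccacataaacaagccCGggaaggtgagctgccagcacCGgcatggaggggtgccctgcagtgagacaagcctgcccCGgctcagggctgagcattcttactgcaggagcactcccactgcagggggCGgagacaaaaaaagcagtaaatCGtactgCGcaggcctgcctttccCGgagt
The Zrsr2 window held 12 CG dinucleotides and 56.4% G or C, and the Zrsr1 window 8 and 54.4%. Among 32851 RefSeq windows of the same length the median was 6, and 33.5% and 43.0% held as many as Zrsr2 and Zrsr1 did, so neither window stood apart by this count.

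The targeted gene came first, as the check of the labels. Spliced Zrsr2 reads numbered 660, 2190 and 2129 in WT replicates 2, 3 and 5 and 33, 12 and 0 in KO replicates 2, 3 and 5. In CPM this was 32.7, 39.9 and 32.5 in WT and 0.543, 0.384 and 0 in KO, so all 3 knockout libraries were far below all 3 wild type libraries. KO replicates 2 and 3 held 1.55% and 1.10% of the wild type mean, and the 0 reads of KO replicate 5 allow up to 0.0835 CPM (3 counts, which covers counting error only). Zrsr2 fell by 6.70 on the log2 scale (SE 0.585, adjusted p = 0.0213, edgeR's quasi-likelihood test with Benjamini-Hochberg adjustment over 16950 genes). At that threshold 0.0177% of all genes tested were called, all 3 of them lower in KO; the others, named after their values were seen, were Mid1-ps1 and Cep170. The log2 difference stayed between -7.57 and -6.18 with any 1 library left out, but the adjusted p was 0.142 without WT replicate 2, 0.0854 without WT replicate 5 and 0.412 without KO replicate 3.

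**Figure D1:**
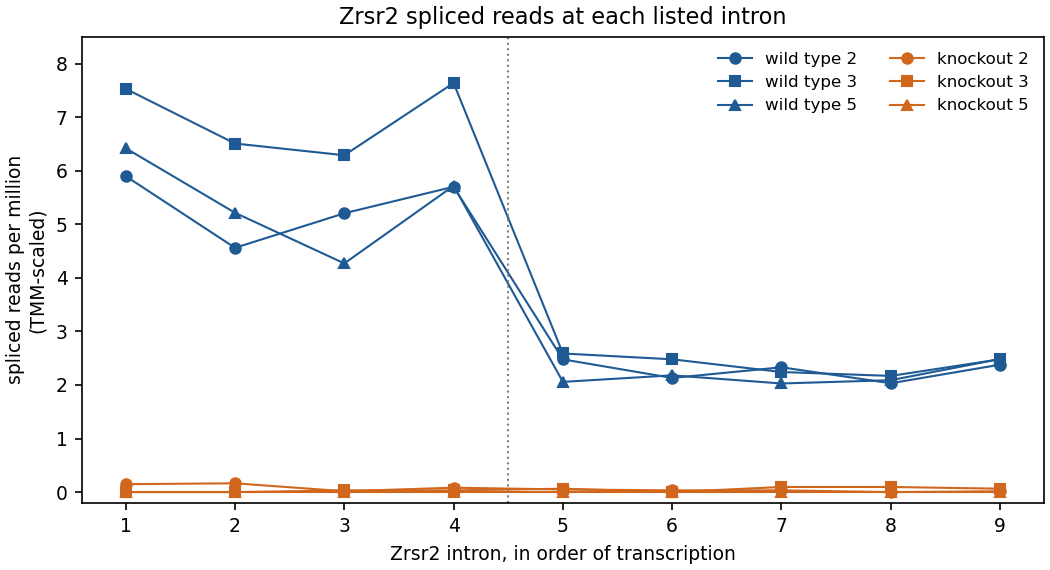
Spliced reads (CPM, TMM-scaled, vertical axis) at each of the 9 Zrsr2 introns in order of transcription, one line per library. The wild type libraries drop from 5.98 over introns 1 to 4 to 2.30 over introns 5 to 9 (the mean over 3 libraries of the median over introns), on either side of the dotted line, while the knockout libraries stay near 0 throughout.

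Within wild type cells Zrsr2 was not read evenly along its length. Introns 1 to 4 had a median level of 5.45, 7.02 and 5.47 CPM per intron in WT replicates 2, 3 and 5, and introns 5 to 9 had a median of 2.33, 2.48 and 2.09 CPM per intron. By these medians the first stretch was 2.34, 2.83 and 2.62 times as high as the second (mean 2.60 ± 0.246, SD, n = 3), and the 2 ranges did not overlap. Between the stretches, at chrX:163950187-163953656, lie 3470 bases without a listed intron, so a junction across that region was not analysed here. The remaining knockout reads were spread differently in the 2 libraries that had any: KO replicate 2 had 25 in the first stretch and 8 in the second, and KO replicate 3 had 2 and 10.

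Unspliced reads, those that cross an exon-intron boundary without a splice, numbered 38, 204 and 182 at Zrsr2 in WT and 1, 0 and 0 in KO. The deposited MSI is the percent of unspliced reads, computed as the 2 boundary counts over themselves plus 2 times the spliced reads. Intron 9, the last (chrX:163936966-163939305), had the highest mean MSI in wild type, at 4.95%, 13.1% and 9.19%, followed by intron 1 (chrX:163957996-163958273) at 6.67%, 10.8% and 8.87%; in WT replicate 2 introns 8, at 6.82%, and 1 were above intron 9. Intron 4 was at 0.862%, 0.357% and 0.266% and intron 5 at 0%, 0% and 0.735%, the lowest means of the gene. None of the 9 introns had enough reads in KO (20 in every library) for a test of retention.

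The 6 genes differed widely in level. As the median over a gene's introns of the CPM per intron, which compares genes without counting their number of introns, U2af1 was at 52.8, 63.7 and 52.5 in WT and U2af2 at 54.9, 57.7 and 51.2, and these ranges overlapped. Sf1 followed at 36.5, 50.4 and 37.6, below every value of both U2AF subunits. Commd1 was at 20.2, 17.7 and 19.7, U2af1l4 at 5.11, 5.78 and 5.22 and Zrsr2 at 2.48, 2.59 and 2.48, each range separate from the next. On the first stretch alone (introns 1 to 4) Zrsr2 and U2af1l4 overlapped. The U2af1l4 median includes introns 3, 6 and 9, which skip exons and lay below it in every library, and so it is lowered by them. Between the small subunit and its paralog the WT means were 56.4 ± 6.39 CPM per intron for U2af1 and 5.37 ± 0.359 for U2af1l4 (SD, n = 3).

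**Figure D2:**
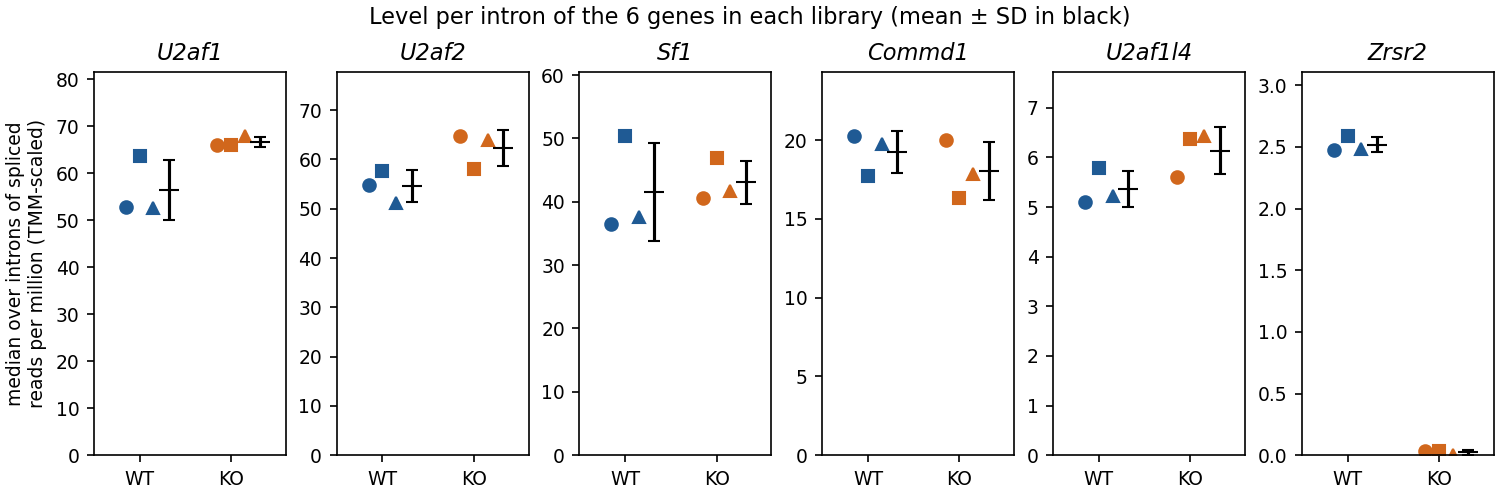
Median over introns of spliced reads (CPM, TMM-scaled) for each gene, one panel per gene with its own axis from 0; points are libraries (circle, square and triangle for replicates 2, 3 and 5), and black marks the mean ± SD of 3. U2af1 lies at 52.5 to 63.7 in wild type and 66.0 to 67.9 in knockout, and Zrsr2 falls to between 0 and 0.0329.

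Beside Zrsr2, none of the 5 other genes passed the test. U2af1 had 447, 513 and 420 CPM, summed over its introns, in WT and 554, 550 and 579 in KO, so every knockout library was above every wild type library (log2 difference 0.29, SE 0.0956, adjusted p = 0.48, edgeR). U2af1l4 had the same order, at 44.5, 51.4 and 42.2 CPM in WT and 57.7, 54.7 and 55.4 in KO (0.28, SE 0.111, adjusted p = 0.488, edgeR). U2af2, the large subunit, was at 743, 813 and 661 CPM in WT and 886, 781 and 843 in KO, where replicate 3 lay below WT replicate 3 (0.18, SE 0.101, adjusted p = 0.542, edgeR). Groups did not overlap for 3 of the 6 genes, Zrsr2 included, against 15.3% of all genes tested, and CPM higher in every knockout library held for 7.3% of all genes, among them U2af1 and U2af1l4.

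Sf1 and Commd1 overlapped between the groups. Sf1 was at 460, 617 and 461 CPM in WT and 513, 580 and 529 in KO (log2 difference 0.08, SE 0.129, adjusted p = 0.839, edgeR). Commd1 was at 40.5, 35.4 and 39.5 CPM in WT and 40.0, 32.7 and 35.6 in KO (-0.09, SE 0.12, adjusted p = 0.792, edgeR). Over all 6 genes, 3 had an unadjusted p under 0.05, against 9.94% of all genes tested.

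U2af1 and its paralog U2af1l4 shared a series of exon lengths. U2af1 has exons of 88, 67, 50, 99 and 134 bases in that order, and U2af1l4 has exons of 88, 67, 50, 99 and 134 bases in the same order, before a last internal exon of 93 bases in U2af1 and 96 bases in U2af1l4. U2af1 carries the 67-base exon in 2 copies, at chr17:31652502-31652568 and, further along the transcript, at chr17:31651646-31651712, and U2af1l4 has 1. Zrsr2 does not share this series: its internal exons on both sides of the unlisted region are of 80, 82 and 109 and of 119, 214, 56 and 110 bases. The introns around the shared exons differ in size, the first 2 introns of U2af1 being of 3586 and 2410 bases and those of U2af1l4 of 123 and 310 bases.

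The 2 copies of the 67-base exon of U2af1 are alternatives, reached from a shared donor at chr17 position 31654978 and joined to a shared acceptor at position 31648895. The deposited spliced count of an intron includes reads spliced across any longer gap around it (170478 nested comparisons, 0 exceptions). The reads of longer listed introns were therefore subtracted to give junction reads, which still hold any read across a longer unlisted gap. No longer intron is listed around intron 3, so any read past both copies stays in its count. At the donor, junction reads of intron 3 (chr17:31651713-31654978), which ends at the downstream copy, numbered 1003, 3056 and 3012 in WT and 3683, 2038 and 2338 in KO. Those of intron 2 (chr17:31652569-31654978), which ends at the upstream copy, numbered 247, 554 and 621 in WT and 628, 358 and 422 in KO. Intron 3 took 80.2%, 84.7% and 82.9% of these reads in WT and 85.4%, 85.1% and 84.7% in KO. All 3 knockout libraries were thus above all 3 wild type ones, though the nearest pair, at 84.65% and 84.71%, were almost equal. The difference did not pass the test (log2 odds 0.25, SE 0.196, adjusted p = 0.909, edgeR; 0.14 without WT replicate 2 and 0.04 on spliced reads as deposited), and shares that do not overlap between groups were found for 10.6% of all introns tested for alternative junctions.

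The acceptor gave other shares. There intron 5 (chr17:31648895-31651645), which starts at the downstream copy, took 57.1%, 61.8% and 58.2% in WT and 58.9%, 61.8% and 62.0% in KO. Intron 4 (chr17:31648895-31652501), which starts at the upstream copy, took the remaining 42.9%, 38.2% and 41.8% in WT and 41.1%, 38.2% and 38.0% in KO. These groups overlapped (log2 odds of intron 5 0.11, SE 0.19, adjusted p = 0.993, edgeR). In every library the downstream copy was lower at the acceptor than at the donor, with WT means of 59.1% and 82.6%, so the 2 ends do not give 1 value for the inclusion of either copy. The 2 copies are of equal length, and what sets the ends apart was not tested.

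**Figure D3:**
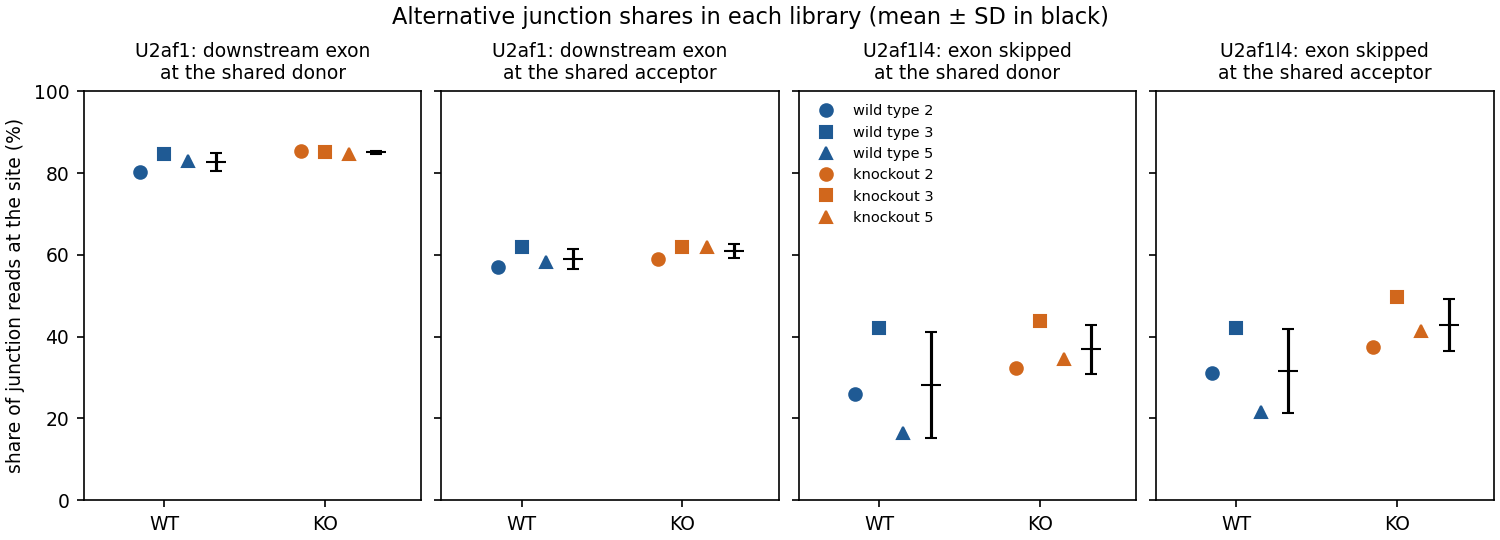
Share of junction reads (percent, vertical axis) taken by the downstream 67-base exon of U2af1 at its shared donor and acceptor, and by the junction that skips the 96-base exon of U2af1l4, in each library, with the mean ± SD of 3 in black. The U2af1 shares lie at 80.2% to 85.4% at the donor and 57.1% to 62.0% at the acceptor, and the U2af1l4 shares spread from 16.3% to 49.8%.

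U2af1l4 had the widest spread of any alternative junction among the 6 genes. Its 96-base exon (chr7:30564703-30564798) was skipped by intron 9 (chr7:30564608-30565094), with 36, 179 and 76 junction reads in WT and 198, 116 and 113 in KO. At the shared donor this was 25.9%, 42.1% and 16.3% of the reads in WT and 32.4%, 43.8% and 34.5% in KO; WT replicate 3 lay among the knockout libraries and the other wild type libraries below them (log2 odds 0.66, SE 0.373, adjusted p = 0.885, edgeR). That test set intron 9 against the junctions into and out of the exon (introns 8 and 10) together, so it covers both shared sites. The log2 odds was 0.21 without WT replicate 5, 1.16 without WT replicate 3 (adjusted p = 0.132, edgeR) and 0.34 on spliced reads as deposited. At the shared acceptor skipping took 31.0%, 42.2% and 21.5% in WT and 37.4%, 49.8% and 41.4% in KO.

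The other skipping junctions of U2af1l4 were rare. Intron 6 (chr7:30564132-30564473), which passes over the 99-base exon, had 3, 17 and 15 reads in WT and 27, 8 and 15 in KO, or 4.76% ± 1.45 and 7.04% ± 2.45 of the reads at its donor (SD, n = 3). Intron 3 (chr7:30563620-30564202), which passes over the 67-base and 50-base exons together, had 3, 16 and 14 reads in WT and 25, 8 and 16 in KO, or 4.54% ± 1.28 and 6.98% ± 2.21 at its acceptor. The groups overlapped for both (adjusted p = 0.909 for each, edgeR). Each of these tests pooled the alternatives at both ends of the intron.

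U2af2 made almost no use of its alternative exon. The exon of 64 bases at chr7:5068733-5068796 was joined to its upstream neighbour by 31, 75 and 69 junction reads in WT and 78, 35 and 55 in KO, against 1065, 2950 and 3005 and 3675, 1654 and 2128 that passed it by. Inclusion was thus 2.83%, 2.48% and 2.24% in WT and 2.08%, 2.07% and 2.52% in KO at the donor, with overlapping groups (log2 odds -0.17, SE 0.226, adjusted p = 0.954, edgeR). The 12 introns of Sf1 had no listed alternative. Over the 6 genes, 16 introns were tested for alternative junctions, and 0 were called and 0 had an unadjusted p under 0.05, where 0.024% and 5.73% of all introns tested did; 0 were also called by limma on log2 ratios.

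Intron retention, the ratio of unspliced to spliced reads, was compared next at each intron. Of the 46 introns with enough reads, those of all genes but Zrsr2, 0 were called by edgeR and 0 by limma on log2 ratios (all adjusted p = 1.0 in edgeR), and 4 had an unadjusted p under 0.05. Over all introns tested the shares were 0.0273% and 4.14%. Log2 odds were above 0 in 23 of the 46 and below 0 in 23, with a median of 0.01. MSI did not overlap between the groups at 6 introns, against 7.91% of all introns tested.

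At U2af1 the log2 odds were below 0 at 8 of the 9 introns, which are not independent because introns 2 and 3 share their donor and introns 4 and 5 their acceptor. Introns 2 and 5 also count the spliced reads of the longer introns 3 and 4. Of 1250, 3610 and 3633 spliced reads at intron 2 in WT, 247, 554 and 621 remained after subtracting those of intron 3. The MSI of intron 2 thus rests mostly on spliced reads that it shares with intron 3. Intron 2, before the upstream 67-base exon, had an MSI of 2.42%, 2.17% and 2.65% in WT and 1.11%, 1.48% and 2.04% in KO, without overlap (log2 odds -0.69, adjusted p = 1.0, edgeR). Intron 3, before the downstream copy, was at 4.25%, 4.04% and 5.0% in WT and 2.63%, 3.64% and 3.53% in KO, also without overlap (-0.47, adjusted p = 1.0, edgeR). The highest mean MSI of the gene in WT, at intron 4, came from 3.49%, 5.88% and 6.47% in WT and 3.52%, 5.11% and 6.05% in KO. Pooled over the gene MSI was 2.15% ± 0.173 in WT and 1.78% ± 0.274 in KO (SD, n = 3), higher in all 3 wild type libraries; the two-sided exact permutation p of 0.1 is the smallest that 3 against 3 can give, and it became 0.5 when adjusted over 5 genes.

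**Figure D4:**
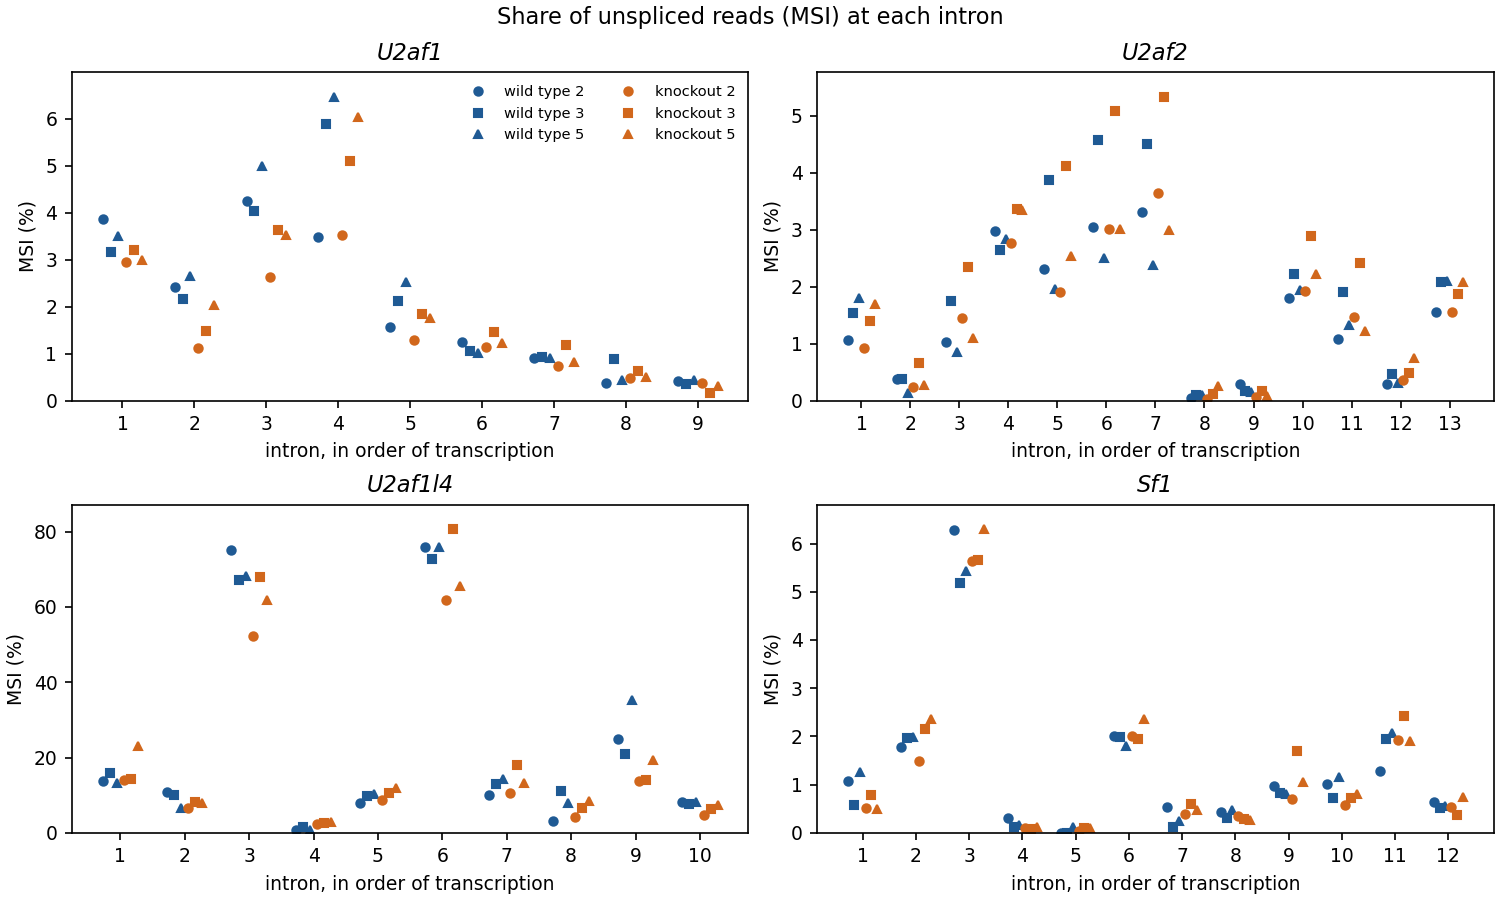
MSI (percent, vertical axis, each panel with its own scale from 0) at every intron of U2af1, U2af2, U2af1l4 and Sf1 in order of transcription, one point per library. U2af1 introns 2 and 3 separate the groups, while the highest points, U2af1l4 introns 3 and 6 at 52.4% to 80.7%, are junctions that skip exons.

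At U2af1l4 the skipping junctions had the highest MSI on the fewest spliced reads. Intron 6 was at 76.0%, 72.6% and 75.8% in WT and 61.7%, 80.7% and 65.5% in KO, and its boundary reads are those of the exon-to-exon introns that share its ends. Of its 10 introns 3 did not overlap between groups, against 7.91% of all introns tested. Intron 9, which skips the 96-base exon, is among them. Its boundary reads are those at the donor of intron 8, before that exon, and at the acceptor of intron 10, after it. The MSI of intron 9 therefore moves with skipping as well as with retention. Intron 4 (chr7:30563997-30564081), between the 67-base and 50-base exons, was higher in KO, with 2, 11 and 6 unspliced reads in WT and 17, 11 and 14 in KO and an MSI of 0.877%, 1.57% and 0.826% against 2.26%, 2.52% and 2.85% (log2 odds 1.15, adjusted p = 1.0, edgeR). Intron 9, the junction that skips the 96-base exon, was at 25.0%, 20.8% and 35.3% in WT and 13.7%, 14.1% and 19.3% in KO (-0.98, adjusted p = 1.0, edgeR; -0.64 without WT replicate 5). Intron 10, which follows that exon and shares the acceptor of intron 9, was at 8.30%, 7.53% and 8.07% in WT and 4.68%, 6.43% and 7.46% in KO (adjusted p = 1.0, edgeR). Intron 1 lies within the span of the overlapping gene Psenen, and reads of the 2 genes cannot be told apart there, since strand is not stated for these counts.

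U2af1l4 had the highest pooled MSI of the 6 genes. Of its introns that skip no exon, introns 1, 2, 5 and 7 stood between 6.46% and 23.0% in all 6 libraries. The 23.0% was at intron 1, which overlaps Psenen, in KO replicate 5. Introns 4, 8 and 10 reached down to 0.826%, 3.14% and 4.68%. The gene's pooled MSI was 11.7% ± 1.17 in WT and 11.3% ± 1.97 in KO. Pooling counts the boundary reads of a shared end once for each intron that uses it, the skipping introns included. Zrsr2 came next in WT at 3.78% ± 0.87, then U2af1 at 2.15% ± 0.173, U2af2 at 1.61% ± 0.3, Sf1 at 1.35% ± 0.0733 and Commd1 at 0.604% ± 0.0634 (SD, n = 3). The ranges of U2af2 (1.40% to 1.95%) and Sf1 (1.26% to 1.39%) were close but separate. Pooled values of these 4 tested genes beside U2af1 overlapped between the groups, with exact permutation p from 0.6 to 0.9.

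At U2af2 the log2 odds were above 0 at 10 of 13 introns, and at none of the 13 did the groups separate. The highest mean MSI in WT was at intron 7 (chr7:5068797-5069443), which follows the rarely used 64-base exon, at 3.3%, 4.49% and 2.38% in WT and 3.64%, 5.33% and 3.0% in KO. Intron 6, which shares its acceptor, was close, at 3.05%, 4.58% and 2.5% in WT and above intron 7 in WT replicates 3 and 5. The smallest p came at intron 9 (chr7:5070501-5074580), where 6, 10 and 9 unspliced reads in WT and 4, 6 and 4 in KO left an MSI of 0.285% or less (log2 odds -0.93, adjusted p = 1.0, edgeR), with log2 odds of -0.52 without KO replicate 2 and -1.36 without KO replicate 3.

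Sf1 had its highest MSI at intron 3 (chr19:6368440-6371266), at 6.29%, 5.17% and 5.42% in WT and 5.64%, 5.66% and 6.31% in KO. Intron 7 (chr19:6372417-6372517), of 101 bases, gave the smallest p: its unspliced reads numbered 10, 7 and 13 in WT and 20, 21 and 16 in KO, an MSI of 0.526%, 0.125% and 0.241% against 0.401%, 0.597% and 0.47% (log2 odds 0.99, adjusted p = 1.0, edgeR), and the log2 odds was 0.54 without WT replicate 3 and 1.40 without WT replicate 2. WT replicate 2 lay among the knockout libraries at this intron. Intron 4 was the 1 intron of the gene without overlap, at 0.307%, 0.116% and 0.167% in WT and 0.11%, 0.085% and 0.111% in KO, on 2 to 7 unspliced reads a library.

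At some introns the 2 ends carried very unequal numbers of unspliced reads. At others they were close, as at U2af2 intron 1, with 280 at the donor end and 272 at the acceptor end over the 6 libraries. Over the 6 libraries U2af1 intron 1 had 32 at its donor end and 970 at its acceptor end, U2af2 intron 4 had 40 and 919, Sf1 intron 6 had 27 and 557, and Commd1 intron 2 had 7 and 107. In these 4 introns at least 90% of the boundary reads lay at the acceptor end, and in 0 introns of the 6 genes did as many lie at the donor end. Some came close to that cut at the donor end. U2af2 introns 13 and 10 and Sf1 intron 11 had 10.2%, 12.1% and 13.7% of their boundary reads at the acceptor end. The 4 are of 47 member introns with 30 or more boundary reads, against 24.4% of such introns in the whole table with 90% or more at either end. MSI at an intron of this kind rests on reads from 1 end.

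**Figure D5:**
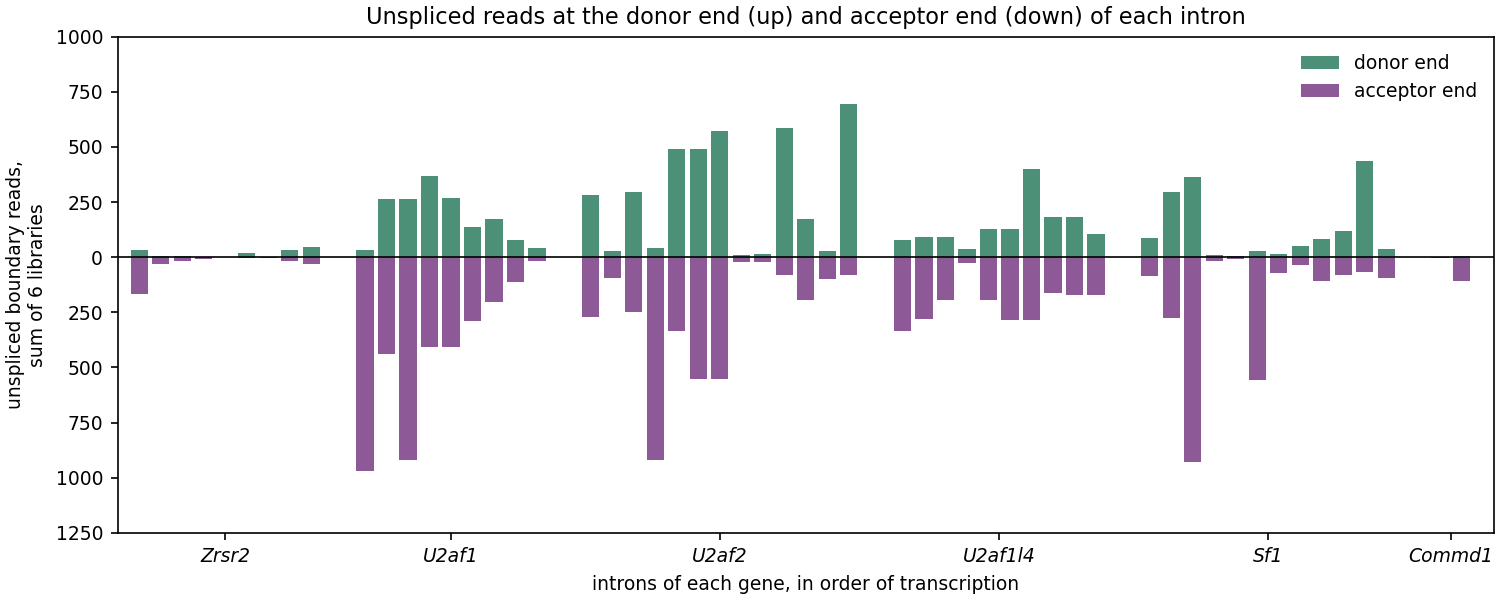
Unspliced reads, summed over the 6 libraries, at the donor end (upward bars) and the acceptor end (downward bars) of each intron of the 6 genes in order of transcription. U2af1 intron 1 reaches 970 reads at the acceptor end with 32 at the donor end, whereas U2af2 intron 13 has 693 at the donor end and 79 at the acceptor end.

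Commd1 was read for the sake of the paralog inside it. Its intron 1 (chr11:22956693-22982078) is 25386 bases long, and Zrsr1 (chr11:22972005-22976496, 4492 bases, plus strand) makes up 17.7% of it. Reads covered 21.5%, 32.6% and 39.0% of this intron in WT replicates 2, 3 and 5 and 29.0%, 24.2% and 25.7% in KO replicates 2, 3 and 5. The groups overlapped, and within each group the order of the values was that of the libraries' spliced reads. WT replicate 5 and KO replicate 2, of similar depth, stood at 39.0% and 29.0%.

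In bases, 5467, 8270 and 9903 were covered in WT and 7362, 6146 and 6519 in KO, in each library more than the length of Zrsr1; where in the intron they lie is not given. Commd1 intron 2 (chr11:22900058-22956410), longer at 56353 bases and without Zrsr1, had 500 to 1557 covered bases in the 6 libraries, 0.887% to 2.76% of its length. The boundary reads did not share the contrast. Intron 1 had 0, 0 and 1 in WT and 2, 0 and 2 in KO beside 415, 987 and 1260 and 1228, 471 and 656 spliced reads (log2 odds 1.83, adjusted p = 1.0, edgeR). On so few reads the log2 odds ran from 1.33 to 3.50 with 1 library left out, the highest without WT replicate 5, which held the 1 boundary read in WT, and was 1.17 with limma. Intron 2 had the higher MSI, at 1.23%, 1.34% and 1.01% in WT and 1.31%, 0.631% and 0.952% in KO.

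Each intron was last set against the other introns of its gene. Of the 46 member introns tested for such a change in usage 0 were called, the smallest unadjusted p being 0.0838 (edgeR), and over all 148367 introns tested 0 were called by edgeR and by limma, with 4.39% at an unadjusted edgeR p under 0.05.

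The genes that work beside these 6 were counted from lists of their pathways, in which 0 genes passed the gene test in either direction by edgeR or DESeq2 and 2 had an unadjusted edgeR p under 0.05, against 9.94% of all genes tested (49.0% of all genes tested had a log2 difference above 0, and the median of all was -0.01). Of 17 genes of the U2 snRNP and the branch point 16 were measured, 15 with a log2 difference above 0 and 1 below, with a median of 0.18. The smallest p values were those of Phf5a, a subunit of the SF3B complex, at 113, 143 and 99.9 CPM in WT and 157, 167 and 157 in KO (0.43, SE 0.136, adjusted p = 0.469, edgeR), and Snrpb2, the U2B″ protein, at 120, 126 and 104 CPM in WT and 137, 144 and 137 in KO (0.26, SE 0.101, adjusted p = 0.488, edgeR). In both every knockout library was above every wild type library, which held for 7.3% of all genes tested. Of 12 minor spliceosome genes 11 were measured, with 8 above and 3 below 0 and a median of 0.13. Groups did not overlap for 0 of them, against 15.3% of all genes tested. The smallest p were at Snrnp35, at 6.91 ± 0.952 CPM in WT and 8.28 ± 0.623 in KO (adjusted p = 0.604, edgeR), and Zcrb1, at 60.2 ± 3.93 and 66.0 ± 3.2 (SD, n = 3, adjusted p = 0.629, edgeR). Both encode proteins of the U11/U12 particle.

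The 5 measured genes of 6 for other proteins with a U2AF-homology domain or their kinase divided into 3 above and 2 below 0, with a median of 0.06. Rbm17, which encodes SPF45, had the smallest p at 284 ± 39.3 CPM in WT and 326 ± 1.82 in KO, followed by the kinase gene Uhmk1 at 11.9 ± 1.48 and 10.4 ± 1.98 (SD, n = 3; adjusted p = 0.533 and 0.738, edgeR). The 12 genes of the COMMD family and its CCC complex, all measured, divided into 6 above and 6 below, with a median of 0.04. Here Commd9, at 14.96 ± 1.11 CPM in WT and 18.4 ± 0.81 in KO, and Commd7, at 51.9 ± 6.49 and 62.2 ± 2.06 (SD, n = 3), were higher in every knockout library (adjusted p = 0.498 for each, edgeR). Groups did not overlap for 3 of the 12 genes, Commd9 and Commd7 included, against 15.3% of all genes tested.

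The genes nearest to Zrsr2 across the 6 libraries, by Euclidean distance of log2 CPM centred on the wild type mean among 16949 others, were Mid1-ps1 at 5.3, Mid1 at 6.37 and Gm27177 at 6.6. Mid1-ps1 had 157, 344 and 377 CPM in WT and 11.8, 7.9 and 10.3 in KO, and Mid1 had 11.2, 18.4 and 14.6 in WT and 1.71, 1.09 and 0.557 in KO; reads of Mid1 and of the pseudogene named after it may be split between them. U2af1 had near neighbours, Mrps22 at 0.0466, Nop9 at 0.0566 and Aimp1 at 0.0592, with log2 differences of 0.30, 0.28 and 0.28 beside 0.29 for U2af1.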

How the data were processed

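The 6 tables, 1 per library, list the same 219945 introns of mm10, the build in the submitters' processing notes. Per the file headers, the authors deposited A1, A2 and Exon, which hold raw counts, MSI, which holds a percent, and CovFrac, which holds a fraction. Aligner, counter, strand setting and the source of the introns: not given in the sources used here. MSI matched 100 × (A1 + A2), divided by A1 + A2 + 2 × Exon, in all 1319670 deposited percent values to within 0.01, so A1 and A2 were read as boundary counts and Exon as spliced reads. The deposited fraction was read as the covered share of an intron.

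Spliced reads were summed per gene, as RefSeq places the introns, and tested by quasi-likelihood (edgeR 4.0.16, R 4.3.3) after TMM scaling and filterByExpr, with calls at a Benjamini-Hochberg adjusted p under 0.05. Retention, alternative junctions and usage were tested as the edgeR interaction of read kind with genotype over all introns, at 20 reads in every sample, or for alternative junctions 30 reads in all with 10 alternative ones. Log2 odds are KO minus WT. Exon also counted longer splices over an intron, so alternative junctions were tested on net reads, after subtracting longer listed introns; this differs from the design, which took Exon as junction reads. Of the net values 0.0503% were negative and set to 0. Alternatives used DESeq2 1.42.0 and limma 3.58.1. Each test was checked on simulated data with planted changes larger than most differences given here. That check does not show whether smaller differences would be found.

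The members and gene lists were chosen with earlier results of these data known. The introns named were, per gene, those with the highest MSI in WT, the smallest retention p, and up to 3 without overlap between groups, with splice sites whose alternative holds 5% or more of the reads; of each pathway list the 2 genes with the smallest p were named, and the 3 genes nearest to Zrsr2 and to U2af1. The other introns and junctions named were chosen after their values were seen.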

Additional observations from a re-analysis of the deposited data

How the results depend on the processing

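Zrsr2 kept its direction under every alternative that tested it, and its call under all but 3, given with its values above; a minimum of 10 reads in every sample left it untested. U2af1, U2af2 and U2af1l4 stayed above 0, and Commd1 below 0, with any 1 library left out. The count of genes called was 3, and 222 with DESeq2, 7 without a count filter, 5 on net junction reads (chosen after seeing the data) and 0 to 35 with 1 library left out. Introns called for retention, 26, became 0 with limma, 9 with at least 10 unspliced reads and 7 to 25 with 1 library left out. Alternative junctions called, 4, became 0 with limma, 0 on spliced reads as deposited (chosen after seeing the data) and 3 to 22 with 1 library left out. Called usage stayed at 0. With the replicate block, a fit that treats same-numbered libraries as paired, 8 genes, 23 introns for retention and 39 alternative junctions were called. The numbers were not taken to pair the samples: the deviations of same-numbered libraries from their group means correlated across 16950 genes at 0.0631, 0.0675 and 0.0156, and WT replicate 5 correlated best with another number. Some fibroblast markers, named above, did have the same order by number in both groups, and what sets that order was not tested.

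Signs of small, uncalled differences turned. The KO minus WT difference in pooled MSI, in percentage points, was -0.35 for U2af1l4 and 0.037 for Sf1, and as a median over introns it was 0.139 and -0.182. With 1 library left out it ran from -1.08 to 0.769 for U2af1l4, from -0.0181 to 0.117 for Sf1, from -0.0544 to 0.352 for U2af2, from -0.161 to 0.0158 for Commd1 and from -0.451 to -0.208 for U2af1. Retention log2 odds ran from -0.0116 to 0.508 at U2af2 intron 7, the lowest without WT replicate 5, and from -0.393 to 0.0556 at U2af1 intron 4, the highest without KO replicate 2, with 0.00735 without WT replicate 5. The causes were not tested. With 1 library left out the gene-level log2 difference ran from 0.10 to 0.25 for U2af2, from 0.0015 to 0.23 for Sf1 and from -0.17 to -0.01 for Commd1, and the log2 odds of U2af1 intron 5 from 0.05 to 0.19. Depth limits the 45 knockout reads of Zrsr2 and introns with few unspliced reads, such as Commd1 intron 1.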
